A study of Mus musculus with 28 samples.

Results

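The Lpl locus of mouse macrophages is described here through 18 chromatin immunoprecipitation sequencing (ChIP-seq) peaks. They are all peaks in the deposited tables that lie within 50 kb of the Lpl gene span, chr8:68880555-68906932 of the mm10 build, a gene of 26.4 kb. Of 63313 peaks of histone H3 acetylated at lysine 27 (H3K27ac, a mark of active promoters and enhancers), 11 lay in this window. Of 8394 peaks of the glucocorticoid receptor (GR, the ligand-activated transcription factor that binds glucocorticoid hormones), 7 lay in it, so that the locus holds 18 of 71707 peaks in all. The locus was chosen on its H3K27ac values in these libraries, which moved in opposite directions with steroids and with interleukin 4 (IL4). The H3K27ac differences of each treatment from vehicle, and of the steroids from IL4, are therefore given as a description with no test.

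Lpl encodes lipoprotein lipase, a secreted enzyme that hydrolyses the triglycerides of chylomicrons and very-low-density lipoproteins and releases fatty acids to the cells nearby. Adipocytes and muscle cells are its best-known sources, and macrophages secrete it as well. Glucocorticoids damp inflammatory gene programmes of macrophages through GR, whereas IL4 acts through STAT6 and drives alternative activation, a state known for high fatty acid uptake and oxidation. PPARγ and the liver X receptors, nuclear receptors that sense lipids, are known regulators of Lpl.

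The cells were macrophages derived from bone marrow of C57BL/6 males of 8 to 10 weeks, and all groups shared a differentiation of 5 days in medium conditioned by L cells. They received 500 nM corticosterone (Cort, the main glucocorticoid that mice make), 100 nM dexamethasone (Dex, a synthetic agonist of the same receptor), 10 ng/ml IL4 or vehicle. Treatment lasted 24 h, and the titles of the H3K27ac vehicle libraries give no time. H3K27ac was measured in 3 libraries per group. GR was measured in 4 Cort, 4 Dex, 3 IL4 and 4 vehicle libraries, in batches 1 and 2, with all IL4 libraries in batch 2. The labels do not say that libraries came from separate animals, so p-values cover only the spread between these libraries, and every comparison with vehicle uses the same vehicle libraries. The cells are bulk samples, in which a change in the share of cells that carry the mark and a change in signal per cell cannot be told apart.

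Counts in peaks ran from 6829787 to 15695771 per H3K27ac library and from 900063 to 1981582 per GR library. Of the GR reads, only 55958 to 415731 per library lay outside the 1% of peaks with the most reads, and Cort replicate 4 of batch 2 held the 415731. The genes of all 8 macrophage markers (among them Csf1r, Adgre1 and Spi1) carried an H3K27ac peak. The summed marker level was 2970 to 3300 counts per 1000000 reads in peaks (CPM) with Cort, 2970 to 3200 CPM with Dex, 2460 to 2790 CPM with IL4 and 2650 to 2960 CPM with vehicle. This sum was thus higher in all steroid libraries than in all vehicle libraries, the reverse of Lpl, and its part in the Lpl values was not tested. No peak lay in any of 6 fibroblast or 4 muscle marker genes. Of 6 adipocyte markers, Adipoq, Cfd and Plin4 had no peak, and the summed level of the other 3 was 1.6 to 6.09 CPM with Cort, 2.56 to 4.65 CPM with Dex, 2.27 to 4.19 CPM with IL4 and 1.88 to 6.07 CPM with vehicle.

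The 11 H3K27ac peaks of Lpl had a summed length of 49.4 kb over an extent of 80.0 kb. The gap before the most distant peak was 22.3 kb, 2 others were 3.8 and 2.8 kb, and the remaining 7 were at most 0.4 kb. In mice Lpl is transcribed from its low to its high coordinate, which is background knowledge, since the gene table used here gives no strand. In that direction, 1 small peak lay before the gene, 6 peaks overlapped it and 4 lay beyond its end. The peak with the most reads, chr8:68905560-68917015, covers the last part of the gene and 10.1 kb beyond it, and is called the gene-end peak here. The peak at the other side of the gene, chr8:68879520-68890067, starts 1.0 kb before the gene and is called the gene-start peak. The outermost peaks inside the window were 3.8 kb before the gene and 43.8 kb beyond it. The nearest H3K27ac peaks outside were 56.3 kb away, nearest to Ints10, and 85.4 kb away, nearest to Slc18a1. Within 50 kb the gene table holds no other protein-coding gene, only the non-coding RNA genes Gm51577, 19.0 kb before Lpl, and Gm32997, 47.1 kb beyond it. The most distant member peak overlaps Gm32997.

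H3K27ac of the gene-end peak was lowest with Dex, next with Cort, higher with vehicle and highest with IL4. It measured 57.0, 60.7 and 64.9 CPM in the Cort libraries, 49.9, 47.6 and 50.3 CPM in the Dex libraries, 251, 240 and 253 CPM in the IL4 libraries, and 114, 86.1 and 148 CPM in the vehicle libraries. All Cort and Dex libraries lay below all vehicle libraries, all IL4 libraries lay above them, and the vehicle group had the widest spread. The means were 60.9 ± 3.94 CPM with Cort, 49.3 ± 1.46 CPM with Dex, 248 ± 6.83 CPM with IL4 and 116 ± 31.2 CPM with vehicle (SD, n = 3 each). Relative to vehicle, the fitted log2 fold change was -0.93 ± 0.16 (SE) with Cort, -1.24 ± 0.16 with Dex and 1.10 ± 0.16 with IL4. These are 0.525, 0.425 and 2.14 times the vehicle level. Set against IL4 directly, the log2 fold change was -2.03 ± 0.16 for Cort and -2.33 ± 0.17 for Dex.

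**Figure D1:**
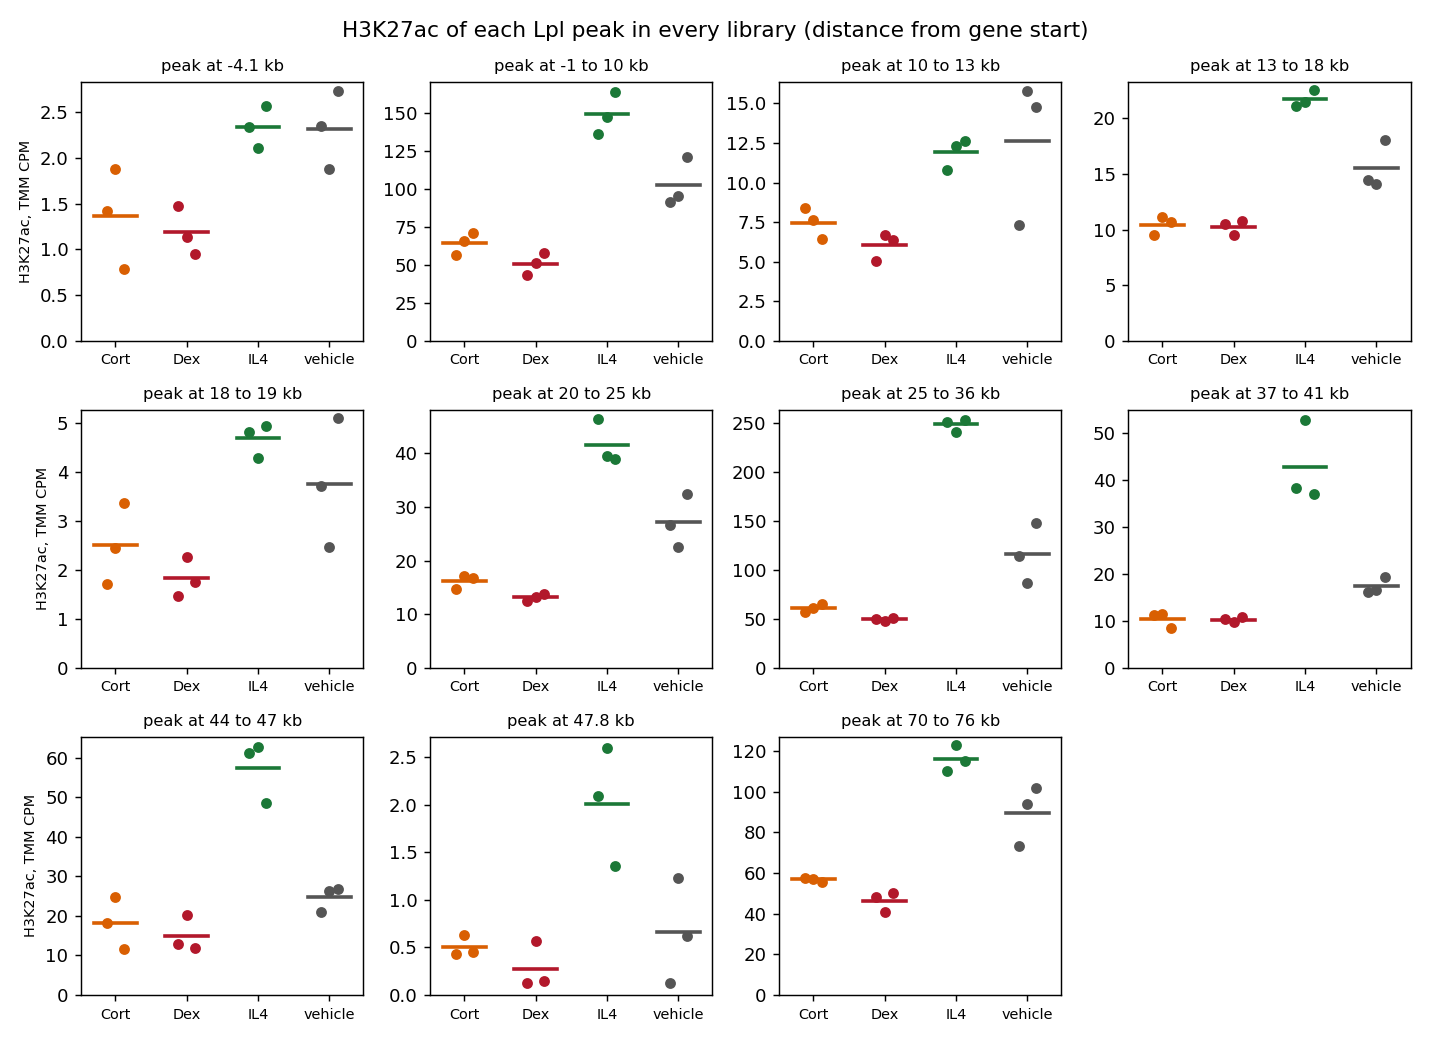
H3K27ac level (y axis, TMM-scaled counts per 1000000 reads in peaks, each panel with its own range from 0) of the 11 Lpl peaks in each of the 12 libraries. Points are libraries and bars are means of 3 libraries per group (Cort, Dex, IL4, vehicle). In the panel of the gene-end peak, 25 to 36 kb from the gene start, the IL4 points lie at 240 to 253 CPM and the Dex points at 47.6 to 50.3 CPM.

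At the gene-start peak, which spans the promoter side of Lpl, the order of the groups was the same. The Cort libraries measured 56.3, 65.7 and 70.9 CPM, the Dex libraries 43.2, 51.1 and 57.4 CPM, the IL4 libraries 136, 147 and 164 CPM and the vehicle libraries 91.0, 95.2 and 121 CPM. No treated library overlapped the vehicle libraries. The log2 fold change relative to vehicle was -0.67 ± 0.15 with Cort, -1.01 ± 0.15 with Dex and 0.54 ± 0.15 with IL4.

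The other 4 peaks that overlap the gene lie between these ends. The peak at chr8:68900257-68905444 measured 14.7, 17.1 and 16.7 CPM with Cort, 12.5, 13.2 and 13.7 CPM with Dex, 46.5, 39.5 and 38.9 CPM with IL4 and 26.7, 22.5 and 32.5 CPM with vehicle. Its groups did not overlap with vehicle, and the log2 fold change was -0.75 ± 0.16 with Cort, -1.05 ± 0.16 with Dex and 0.61 ± 0.16 with IL4. At chr8:68893778-68898782 the order was similar, with 9.5, 11.1 and 10.7 CPM with Cort, 10.5, 9.49 and 10.8 CPM with Dex, 21.1, 21.5 and 22.6 CPM with IL4 and 14.5, 14.1 and 18.1 CPM with vehicle. There Cort and Dex gave nearly equal log2 fold changes, -0.58 ± 0.16 and -0.60 ± 0.16, and IL4 gave 0.48 ± 0.15.

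In the remaining peaks inside the gene, the IL4 and vehicle libraries overlapped. The peak at chr8:68890331-68893642 had 8.36, 7.6 and 6.4 CPM with Cort, 5.02, 6.67 and 6.36 CPM with Dex, 10.8, 12.3 and 12.6 CPM with IL4 and 7.31, 15.8 and 14.8 CPM with vehicle. Vehicle replicate 1 stood below the other vehicle libraries there and inside the Cort range, while Dex stayed below all of them. The log2 fold change was -0.77 ± 0.25 with Cort, -1.07 ± 0.26 with Dex and -0.09 ± 0.25 with IL4, the only one of the 11 IL4 values below 0. The short peak at chr8:68898938-68899945 had 1.7, 2.44 and 3.37 CPM with Cort, 1.47, 2.25 and 1.75 CPM with Dex, 4.81, 4.29 and 4.94 CPM with IL4 and 3.71, 2.46 and 5.09 CPM with vehicle. Only Dex was clear of the vehicle libraries at this peak, with a log2 fold change of -1.03 ± 0.32, against -0.58 ± 0.31 with Cort and 0.31 ± 0.30 with IL4.

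Just before the gene, the peak at chr8:68876132-68876742 showed lower values with the steroids and values near those of vehicle with IL4. It had 1.42, 1.88 and 0.786 CPM with Cort, 1.47, 1.13 and 0.95 CPM with Dex, 2.34, 2.11 and 2.57 CPM with IL4 and 2.35, 1.88 and 2.73 CPM with vehicle. The highest Cort library lay just below the lowest vehicle library, equal at the digits given, and the IL4 libraries lay within the vehicle range. The log2 fold change was -0.74 ± 0.33 with Cort, -1.0 ± 0.33 with Dex and 0.01 ± 0.31 with IL4.

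The peaks beyond the gene end had the highest log2 fold changes with IL4, apart from the most distant one. The peak at chr8:68917370-68921217, 10.4 kb beyond the gene, measured 11.3, 11.4 and 8.53 CPM with Cort, 10.3, 9.65 and 10.7 CPM with Dex, 38.2, 52.8 and 37.0 CPM with IL4 and 16.2, 16.5 and 19.4 CPM with vehicle. Its groups were clear of the vehicle libraries, with a log2 fold change of -0.73 ± 0.18 with Cort, -0.76 ± 0.18 with Dex and 1.30 ± 0.18 with IL4. Further out, 18.1 kb beyond the gene, chr8:68925030-68927832 measured 18.3, 24.8 and 11.6 CPM with Cort, 13, 20.1 and 11.9 CPM with Dex, 61.1, 62.8 and 48.5 CPM with IL4 and 20.9, 26.3 and 26.9 CPM with vehicle. There 1 Cort library lay within the vehicle range, and the log2 fold change was -0.43 ± 0.26 with Cort, -0.72 ± 0.26 with Dex and 1.21 ± 0.26 with IL4.

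The smallest peak, chr8:68928176-68928463, held only 1 to 32 reads per library, 0.122 to 2.59 CPM. Its IL4 libraries, at 2.09, 2.59 and 1.35 CPM, lay above all others, and its steroid libraries overlapped the vehicle libraries. The log2 fold change was -0.42 ± 0.64 with Cort, -1.23 ± 0.68 with Dex and 1.51 ± 0.54 with IL4. The most distant peak, chr8:68950744-68956106, 43.8 kb beyond the gene, was broad and strong. It had 57.7, 57.2 and 55.8 CPM with Cort, 48.0, 40.6 and 50.1 CPM with Dex, 110, 123 and 115 CPM with IL4 and 73.3, 93.9 and 102 CPM with vehicle. All groups were clear of vehicle, with a log2 fold change of -0.66 ± 0.14 with Cort, -0.96 ± 0.14 with Dex and 0.37 ± 0.13 with IL4.

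Over the 11 peaks, every Cort library lay below every vehicle library at 7 peaks, against 8.37% of the 59881 tested H3K27ac peaks. Every Dex library lay below every vehicle library at 10 peaks, against 11.5% of all tested peaks, and every IL4 library lay above at 8 peaks, against 22.2%. At 6 of the 11 peaks both steroids lay below and IL4 above the vehicle libraries, a pattern of 0.596% of all tested peaks. Nothing is read from these counts, because the locus was chosen for them. All 11 log2 fold changes were below 0 with Cort, with a median of -0.67, and with Dex, with a median of -1.01, while IL4 had a median of 0.54. The medians over all tested peaks were 0.00 with Cort, 0.01 with Dex and -0.02 with IL4. In the direct comparison with IL4, all libraries of each steroid lay below all IL4 libraries at 11 of 11 peaks, against 20.5% of all tested peaks for Cort and 21.1% for Dex.

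**Figure D2:**
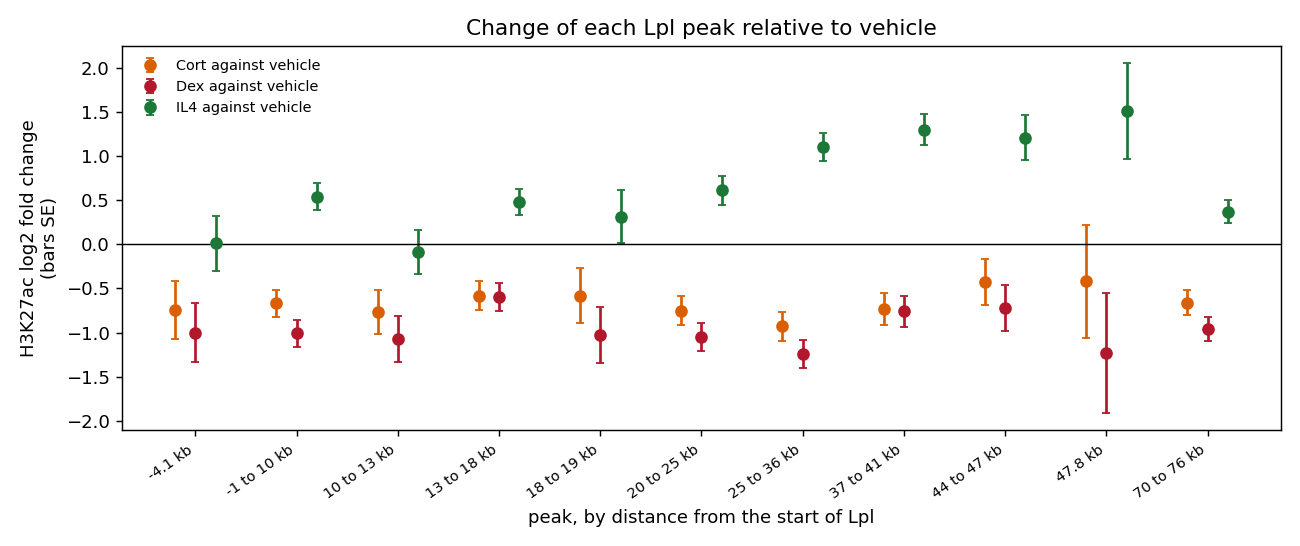
Fitted log2 fold change of H3K27ac relative to vehicle (y axis, bars SE) of the 11 Lpl peaks, placed by distance from the gene start (x axis), for Cort, Dex and IL4 with 3 libraries each. All Cort and Dex points lie below 0, and the IL4 points run between -0.09 and 1.51, with the 4 highest among the gene-end peak and the peaks just beyond it.

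Per kb of peak, the level also differed between the parts of the locus. The gene-end peak had a mean of 5.31 CPM per kb with Cort, 4.3 with Dex, 21.6 with IL4 and 10.1 with vehicle. The most distant peak had 10.6 CPM per kb with Cort, 8.62 with Dex, 21.6 with IL4 and 16.7 with vehicle, so it was the densest of the 11 in the steroid and vehicle groups and level with the gene-end peak in the IL4 group. The gene-start peak had 6.1 CPM per kb with Cort, 4.79 with Dex, 14.1 with IL4 and 9.69 with vehicle. The 4 peaks between the gene ends were sparser, at 1.81 to 8.02 CPM per kb over all groups.

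**Figure D3:**
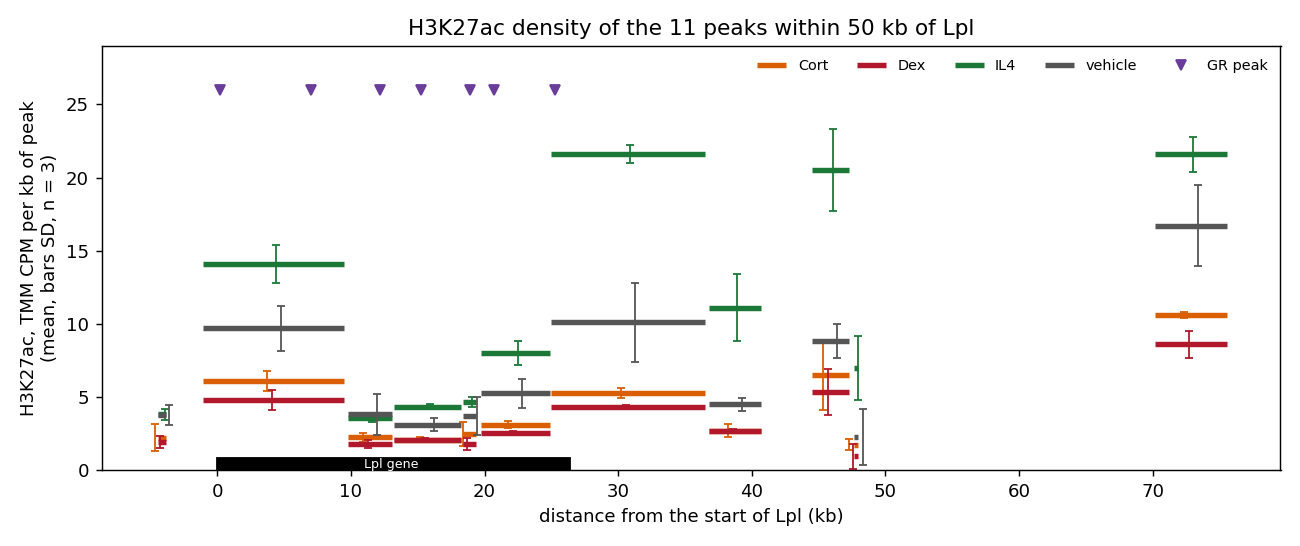
H3K27ac density (y axis, TMM-scaled CPM per kb of peak) along the Lpl locus (x axis, kb from the gene start). Each horizontal bar spans 1 peak at its group mean, with SD over 3 libraries, the black bar is the gene and triangles are the 7 GR peaks. With IL4 the gene-end peak reaches 21.6 CPM per kb, level with the most distant peak, while with vehicle they lie at 10.1 and 16.7 CPM per kb.

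The summed level of the 11 peaks was 249 ± 12 CPM with Cort, 204 ± 9.61 CPM with Dex, 697 ± 12.2 CPM with IL4 and 412 ± 68.2 CPM with vehicle (SD, n = 3 each). How that sum was divided among the peaks differed mainly with IL4. The gene-end peak held 24.4 ± 1.33% of it with Cort, 24.2 ± 1.15% with Dex, 35.6 ± 1.47% with IL4 and 27.9 ± 4.37% with vehicle. The IL4 libraries, at 33.9% to 36.7%, lay above the vehicle libraries, at 22.9% to 30.7%. The most distant peak held 16.6 ± 0.624% with IL4, against 21.9 ± 2.76% with vehicle. The gene-end peak measured 1.67 ± 0.154 times the gene-start peak with IL4 (range 1.54 to 1.84), against 1.13 ± 0.194 times with vehicle (range 0.904 to 1.25). With the steroids this ratio was 0.95 ± 0.0524 for Cort and 0.989 ± 0.151 for Dex, both overlapping the vehicle range. The gene-end peak was picked for having the most reads over all 12 libraries, IL4 included. That choice favours a high share and ratio with IL4, so these are given as a description.

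Dex and Cort, both agonists of GR, were compared with a test, since the choice of the locus did not use their difference, although it used the values of both. The doses differ, 100 nM for Dex and 500 nM for Cort, so the comparison is of these treatments and not of matched doses. In edgeR's quasi-likelihood test with Benjamini-Hochberg adjustment over all peaks, none of the 11 H3K27ac peaks was called, against 0.0% of all 59881 tested peaks. DESeq2 called 0 peaks too, while 793 of all tested peaks and 2 of the 11 had an unadjusted p under 0.05. All 11 log2 fold changes of Dex over Cort were below 0, between -0.82 and -0.02. The gene-end peak had a value of -0.31 ± 0.16 (95% interval -0.65 to 0.04), the gene-start peak -0.35 ± 0.15 (-0.67 to -0.02) and the most distant peak -0.30 ± 0.14 (-0.60 to -0.01), each with an adjusted p of 1.0. Every Dex library lay below every Cort library at 3 of the 11 peaks, against 2.2% of all tested peaks. Over all tested peaks, 1404 were called lower than vehicle with Dex and 225 with Cort. Nothing is read from the shared sign or from this count, since the locus was chosen as lowered by both steroids and its peaks are neighbours. With the replicate number as a block, the values were -0.31 ± 0.11 (-0.55 to -0.07) for the gene-end peak, -0.35 ± 0.09 (-0.53 to -0.17) for the gene-start peak and -0.30 ± 0.11 (-0.53 to -0.08) for the most distant peak. Dex lay below Cort in 3 of 3 pairs at each of these peaks. The block called 0 of all tested peaks, with adjusted p of 1.0, 0.962 and 1.0 at these 3, while 2293 of all tested peaks and 4 of the 11 had an unadjusted p under 0.05. Elsewhere in the locus, Dex lay below Cort in only 1 of 3 pairs at chr8:68876132-68876742 and chr8:68893778-68898782. It did so in 2 of 3 at chr8:68917370-68921217 and chr8:68925030-68927832, and in 3 of 3 at the rest. The share of all tested peaks with 3 of 3 pairs was not computed, so nothing is read from these pairs.

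All 7 GR peaks lay inside the Lpl gene, and each lay in 1 of the H3K27ac peaks. Among all GR peaks, 52.9% (4439 of 8394) overlapped an H3K27ac peak by at least 1 bp. Nothing is read from this difference, because almost any position in the gene would lie in an H3K27ac peak. The 6 H3K27ac peaks that overlap the gene cover nearly all of it, with gaps of at most 0.4 kb. The Lpl GR peaks stood 0.2, 6.9, 12.1, 15.1, 18.9, 20.7 and 25.2 kb from the gene start, with neighbours 1.7 to 6.61 kb apart. The first lay in the gene-start peak and the last, chr8:68905730-68905903, in the gene-end peak. Counting Lpl itself, only 20 of 21900 protein-coding genes (0.0913%) held at least 7 GR peaks in their span, and 9 of the 13606 genes no longer than Lpl did. No GR peak lay outside the gene within the window, and the next ones were 487.7 kb before the gene and 87.8 kb beyond it.

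The GR peaks of Lpl rested on few reads, most of them from batch 1. Summed over the 7 peaks, the batch 1 libraries held 103 and 164 reads with Cort, 117 and 146 reads with Dex and 72 and 141 reads with vehicle. The batch 2 libraries held 15 and 16 reads with Cort, 6 and 16 with Dex, 21, 28 and 16 with IL4, and 24 and 28 with vehicle. Single peaks had 6 to 36 reads per library in batch 1 and 0 to 10 in batch 2, where 8 of 63 values were 0. Libraries without any added steroid thus had reads at these peaks, in numbers that overlapped those of the steroid libraries in batch 1.

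The steroid difference at these GR peaks depended on what the reads were divided by. Per 1000000 reads in all GR peaks, the batch 1 libraries had 58.6 and 136 with Cort, 98.7 and 121 with Dex and 80.0 and 131 with vehicle, which overlap. In batch 2 they had 8.95 and 8.63 with Cort, 4.65 and 8.4 with Dex, 13.3, 14.7 and 8.66 with IL4 and 12.2 and 14.1 with vehicle, where both steroids lay below vehicle. Per 1000000 reads outside the 1% of peaks with the most reads, the batch 1 libraries had 720 and 1150 with Cort, 926 and 1000 with Dex and 1290 and 1650 with vehicle. On that scale batch 2 gave 132 and 38.5 with Cort, 56.7 and 114 with Dex, 186, 263 and 164 with IL4, and 218 and 368 with vehicle, so the steroid libraries lay below vehicle in both batches.

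**Figure D4:**
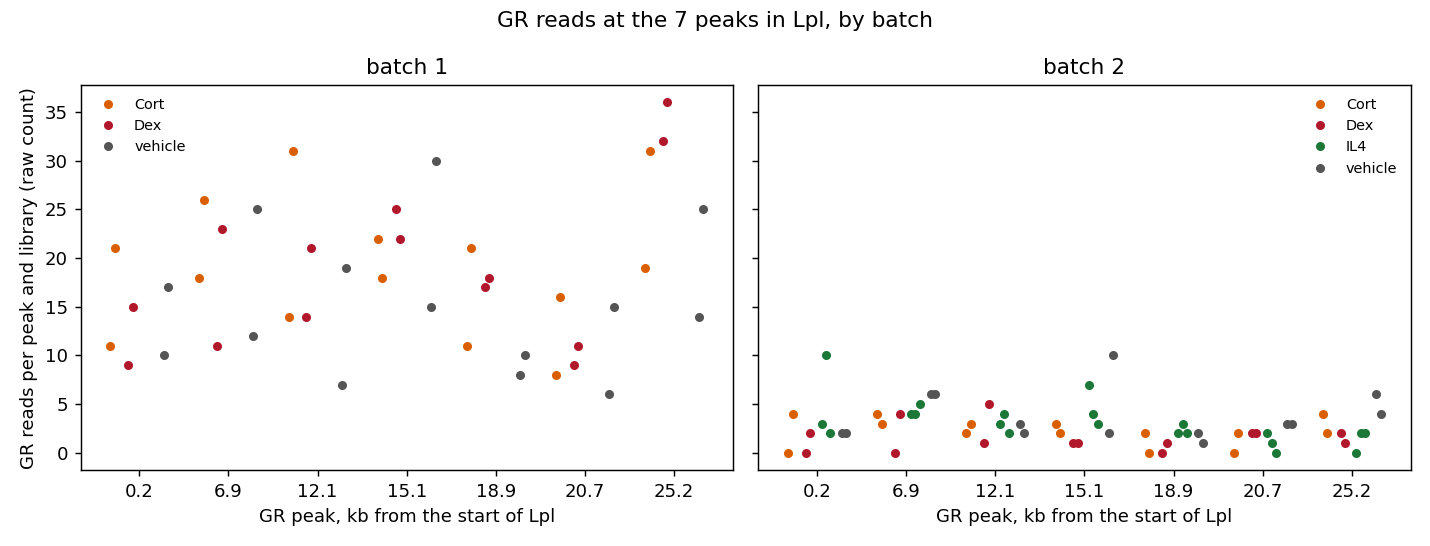
Raw GR reads (y axis) at each of the 7 GR peaks in Lpl (x axis, kb from the gene start) in every library, batch 1 on the left and batch 2 on the right. Batch 1 libraries hold 6 to 36 reads per peak, with Cort, Dex and vehicle points overlapping, and batch 2 libraries hold 0 to 10.

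In the edgeR quasi-likelihood fit of all 15 GR libraries with batch as a covariate and TMM scaling, 2 of the 7 peaks were lower with Cort and none was higher, against 14.8% and 12.8% of the 5183 tested GR peaks. With Dex 2 were lower and none was higher, against 15.6% and 14.7% of tested peaks, and they were the same 2 peaks. The first, chr8:68887470-68887602, inside the gene-start H3K27ac peak, had 18, 26, 4 and 3 reads with Cort, 11, 23, 0 and 4 with Dex, 4, 4 and 5 with IL4 and 12, 25, 6 and 6 with vehicle. After scaling its log2 fold change was -1.21 ± 0.42 with Cort (adjusted p 0.0446) and -1.64 ± 0.43 with Dex (adjusted p 0.00977). The second, chr8:68895701-68895882, in the middle of the gene, had 22, 18, 3 and 2 reads with Cort, 25, 22, 1 and 1 with Dex, 7, 4 and 3 with IL4 and 15, 30, 2 and 10 with vehicle. Its log2 fold change was -1.72 ± 0.52 with Cort (adjusted p 0.0258) and -1.66 ± 0.51 with Dex (adjusted p 0.0234). In raw reads the batch 1 libraries of both peaks overlapped between steroid and vehicle, and the batch 2 libraries of Cort, Dex and vehicle held 0 to 10 reads at each.

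Of these calls, only that of Dex at chr8:68887470-68887602 held when any 1 library of the 2 groups compared was left out. Libraries of the other groups were not left out. The Cort call at that peak was lost without vehicle replicate 2, 3 or 4 or Cort replicate 1, 2 or 3, with adjusted p between 0.0615 and 0.144. The Cort call at chr8:68895701-68895882 was lost without vehicle replicate 2 or 4 or Cort replicate 1 or 2, at 0.0535 to 0.0746, and the Dex call without vehicle replicate 2 or 4 or Dex replicate 2 or 4, at 0.0506 to 0.0753. Cort replicate 4 stood apart in its GR reads, and without it both Cort calls held, at adjusted p 0.0336 and 0.00574, and chr8:68905730-68905903 was called as well (0.0437). Within batch 1 alone, Cort was called only at chr8:68895701-68895882 (adjusted p 0.0105), and Dex at both peaks and at the gene-start GR peak chr8:68880708-68880862 (0.0391). Within batch 2 none of the 7 peaks had enough reads to be tested.

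All 7 GR peaks had log2 fold changes below 0 with Cort (-1.72 to -0.55) and with Dex (-1.66 to -0.55) under TMM scaling. Their medians were -1.13 with Cort and -1.30 with Dex, against 0.17 and -0.12 over all tested GR peaks. Scaling by total counts instead called none of the 7 peaks, and the members' medians became -0.29 with Cort and -0.32 with Dex, with 5 and 4 of the 7 values below 0. That scaling moved the median of all GR peaks to 0.96 with Cort and 0.86 with Dex. Relative to that median the members stood at -1.30 for Cort under TMM and -1.25 under total counts, and at -1.18 for Dex under both. A change of scaling shifts all peaks by nearly the same amount, so this likeness was fixed in advance and nothing is read from it.

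The GR peak in the gene-end H3K27ac peak, chr8:68905730-68905903, held the most GR reads of the 7 on average. It had 19, 31, 4 and 2 reads with Cort, 32, 36, 2 and 1 with Dex, 0, 2 and 2 with IL4 and 14, 25, 6 and 4 with vehicle. The Dex libraries of batch 1 lay above those of vehicle in raw reads, and after scaling the log2 fold change was -1.13 ± 0.44 with Cort (adjusted p 0.0719) and -0.91 ± 0.43 with Dex (adjusted p 0.126). With IL4 it was -1.70 ± 0.73 (adjusted p 0.41). The gene-start GR peak, chr8:68880708-68880862, had 11, 21, 0 and 4 reads with Cort, 9, 15, 0 and 2 with Dex, 3, 10 and 2 with IL4 and 10, 17, 2 and 2 with vehicle. Its log2 fold change was -1.0 ± 0.57 with Cort (adjusted p 0.204) and -1.45 ± 0.59 with Dex (adjusted p 0.0762).

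Of the remaining GR peaks, chr8:68892645-68892776 had 14, 31, 2 and 3 reads with Cort, 14, 21, 1 and 5 with Dex, 3, 4 and 2 with IL4 and 7, 19, 3 and 2 with vehicle. The peak at chr8:68899442-68899530 had 11, 21, 2 and 0 reads with Cort, 17, 18, 0 and 1 with Dex, 2, 3 and 2 with IL4 and 8, 10, 2 and 1 with vehicle. Neither passed the test with a steroid, and their log2 fold changes of -0.72 to -0.55 were the nearest to 0 of the 7. The peak with the fewest reads, at chr8:68901235-68901310, had at most 16 in a library and log2 fold changes of -1.34 ± 0.51 with Cort (adjusted p 0.0634) and -1.30 ± 0.51 with Dex (adjusted p 0.0674).

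IL4 changed none of the 7 GR peaks in the edgeR test, against 0.0% of all tested GR peaks. At an unadjusted p under 0.05 there were 612 of all tested peaks and 1 of the 7, and DESeq2 called 191 peaks, none of them in Lpl. The IL4 libraries lie in batch 2 alone, where the Lpl peaks held 0 to 10 reads. The lowest log2 fold changes with IL4 were at chr8:68905730-68905903, with a 95% interval of the log2 fold change of -3.27 to -0.14, and at chr8:68901235-68901310, with -3.50 to 0.22. Dex against Cort likewise called none of the 7, against 0.0% of all tested peaks, with 468 peaks and none of the 7 at an unadjusted p under 0.05 and none called by DESeq2. Their log2 fold changes of Dex over Cort ran between -0.45 and 0.22.

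The H3K27ac peaks most like the gene-end peak over the 12 libraries were sought by Pearson correlation of log2 CPM, as a description, since libraries share their groups. The other 10 Lpl peaks correlated with it at 0.716 to 0.988, with a median of 0.918, and 787 of 59881 tested peaks exceeded 0.9. Outside the window, peaks within 50 kb of a protein-coding gene were ranked, with at most 1 per gene. The closest of these was a peak in Pcdh7, which encodes a protocadherin, at chr5:57714123-57719482 with r = 0.986. It measured 18.4 ± 2.40 CPM with Cort, 16.7 ± 1.43 CPM with Dex, 56.8 ± 4.39 CPM with IL4 and 27.6 ± 5.66 CPM with vehicle (SD, n = 3 each). Next came peaks in Wdr89 at chr12:75657622-75661041 (r = 0.980), Vwa8 at chr14:79088730-79090738 (r = 0.979), Ubash3b at chr9:41048193-41053173 (r = 0.977) and Rims2 at chr15:39608315-39610367 (r = 0.976). Ubash3b encodes a tyrosine phosphatase that restrains receptor signalling in blood cells, and Rims2 a protein of synaptic vesicle release. The Wdr89 peak had the highest IL4 mean relative to vehicle of the 5, with 17.0 ± 2.54 CPM with Cort, 13.8 ± 0.729 CPM with Dex, 69.4 ± 2.95 CPM with IL4 and 25.4 ± 7.21 CPM with vehicle.

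To set Lpl in its pathway, 45 other genes were examined. They mature, inhibit, bind or follow the enzyme, encode other lipases such as Lipc and Lipg, or regulate lipid genes (Pparg, Ppard, Rxra, Nr1h2, Nr1h3 and Srebf1). Of the 45, 40 were the nearest gene of a tested H3K27ac peak within 50 kb, with 218 peaks. These were compared with vehicle by edgeR's quasi-likelihood test with Benjamini-Hochberg adjustment over all peaks. With Cort 3 peaks were higher and none was lower, against 1.18% and 0.376% of all tested peaks. With Dex 6 were higher and 1 lower, against 2.9% and 2.34%, and with IL4 32 were higher and 11 lower, against 14.7% and 12.9%. Replicate numbers of the H3K27ac libraries were taken as pairs, which the labels do not state. With the number as a block 24 were higher and 11 lower with Cort, 30 and 21 with Dex and 63 and 23 with IL4, while all peaks called rose to 12.6%, 20.3% and 43.5%. The median log2 fold change of the 218 peaks was 0.08 with Cort, 0.10 with Dex and 0.22 with IL4.

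In the fit without the block, taking each gene's peak with the most reads, 14 genes had a call in at least 1 comparison. With the block further genes had one. Cd36 was then lower with Cort and Dex (-0.43 each without the block, adjusted p 0.0202 and 0.0211 with it) and higher with IL4 (0.49, 0.0166), as Lpl was. So was Lipa (-0.32, -0.41 and 0.39, adjusted p 0.0211, 0.00137 and 0.000687 with the block). Sort1 went the other way with Dex (0.49, 0.0104 with the block) and IL4 (-0.33, 0.0182). Of the apolipoprotein C genes on chromosome 7, without the block Apoc1 had calls in all 3 comparisons, Apoc2 with both steroids, and Apoc4 with Dex and IL4. Their peaks are neighbours, all within chr7:19674156-19702460. Apoc2 encodes the obligate activator of lipoprotein lipase, and its peak at chr7:19674156-19677878 measured 57.6 ± 5.94 CPM with Cort, 62.0 ± 8.21 CPM with Dex, 19.6 ± 2.52 CPM with IL4 and 25.4 ± 0.751 CPM with vehicle. It rose with Cort by a log2 fold change of 1.18 ± 0.15 (adjusted p 0.000912) and with Dex by 1.29 ± 0.15 (0.00029), and had -0.38 ± 0.15 with IL4 (0.07, and 0.00724 with the block).

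Apoc1 encodes an apolipoprotein that inhibits the lipase, and its peak at chr7:19692487-19702460 also overlaps Apoe and Tomm40. The peak was counted for Apoc1 only by alphabetical order among the genes it overlaps, which left Apoe with no peak. It had 224 ± 39.9 CPM with Cort, 230 ± 52.8 CPM with Dex, 64.9 ± 3.04 CPM with IL4 and 121 ± 11.5 CPM with vehicle. It rose with Cort (0.89 ± 0.17, adjusted p 0.0198) and Dex (0.92 ± 0.17, 0.00788) and fell with IL4 (-0.90 ± 0.17, 0.00191). The Apoc4 peak rose with Dex (0.81 ± 0.19, 0.0276) and fell with IL4 (-0.72 ± 0.19, 0.0145), with 0.79 ± 0.19 for Cort (0.06, and 0.000404 with the block). Apoc4 encodes a minor apolipoprotein of very-low-density lipoproteins.

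Among the proteins that handle the released fatty acids, Fabp4, a fatty acid binding protein, rose in all 3 treatments. Its peak at chr3:10205119-10209584 had 24.6 ± 1.11 CPM with Cort, 27.9 ± 7.79 CPM with Dex, 29.7 ± 2.13 CPM with IL4 and 12.7 ± 2.97 CPM with vehicle. The log2 fold changes were 0.94 ± 0.21 with Cort (adjusted p 0.0392), 1.13 ± 0.21 with Dex (0.00745) and 1.22 ± 0.21 with IL4 (0.000881). Pnpla2, the triglyceride lipase of lipid droplets, rose with Dex (0.83 ± 0.22, 0.0458), with 0.77 ± 0.22 for Cort (0.115, and 0.000313 with the block) and 0.52 ± 0.22 for IL4 (0.102, and 0.00238 with the block).

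The other calls were of IL4 alone. Higher with IL4 were the lipid droplet coat Plin2 (0.37 ± 0.11), the fatty acid transporter Slc27a1 (0.46 ± 0.14), Abhd5, an activator of Pnpla2 (0.59 ± 0.17), and the heparan sulphate proteoglycan Sdc4 (0.59 ± 0.15). So were the peak nearest to Sdc1, 37.5 kb from that gene (1.12 ± 0.24), and 2 genes whose products restrain the lipase. These are Angptl4, an inhibitor that unfolds it, with 8.52 ± 3.60 CPM with Cort, 8.05 ± 3.62 CPM with Dex, 21.5 ± 7.76 CPM with IL4 and 8.25 ± 2.46 CPM with vehicle (1.39 ± 0.41, adjusted p 0.0217), and Furin, a protease that cleaves it (0.40 ± 0.11). Adjusted p over these 7 peaks ran from 0.00374 (Sdc1) to 0.029 (Slc27a1).

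Lower with IL4 were the peak nearest to Vldlr, 15.5 kb from that receptor gene (-0.75 ± 0.23, adjusted p 0.0251), and the peak next to Sel1l, whose product helps the lipase leave the endoplasmic reticulum. The Sel1l peak, chr12:91801588-91805460, had 15.1 ± 14.4 CPM with Cort, 11.6 ± 12.2 CPM with Dex, 2.98 ± 0.708 CPM with IL4 and 29.6 ± 18.6 CPM with vehicle, so its spread in 3 of the 4 groups was large beside its mean (-3.33 ± 0.79 with IL4, 0.00705). Neither steroid had a call at these 9 peaks. With the block both had one at Furin and Sdc4 (higher) and Sel1l (lower), and Dex also at Sdc1 (adjusted p 0.0483) and Vldlr (0.0205), both lower. The peak nearest to Gpihbp1, which encodes the capillary anchor of the lipase, had 24 reads per library on average and did not pass the test in any comparison.

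**Figure D5:**
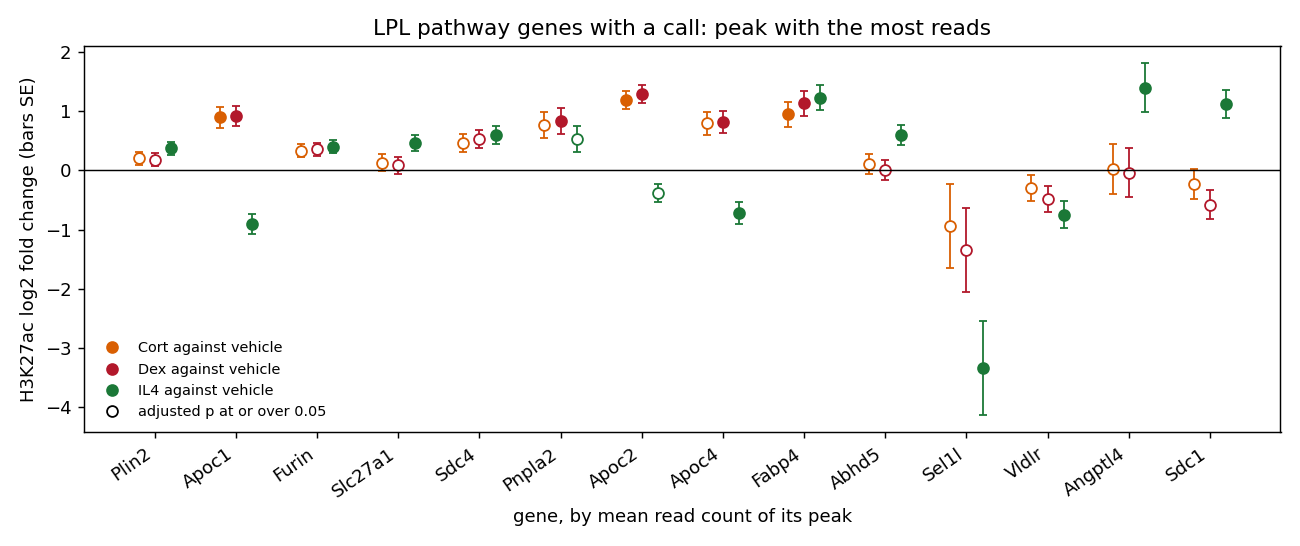
H3K27ac log2 fold change relative to vehicle (y axis, bars SE) of the peak with the most reads of each of the 14 pathway genes with a call in the fit without the block, ordered by mean reads (x axis), for Cort, Dex and IL4 with 3 libraries per group. Filled points passed an adjusted p under 0.05 and open points did not. The Apoc1 points, of a peak that also overlaps Apoe and Tomm40, lie at 0.89 with Cort, 0.92 with Dex and -0.90 with IL4, the reverse of the Lpl gene-end peak.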

How the data were processed

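ChIP-seq of GR (15 libraries) and H3K27ac (12 libraries) was analysed. The authors deposited raw counts of reads in 1 peak set per assay. The submitters' processing notes name mm10 and, with no versions, featureCounts, MACS2, SAMtools, Bowtie2 and fastp. The deposited tables also give each peak's length, and a flag, filtered, with no stated criterion (TRUE for 33835 of 63313 H3K27ac and 2296 of 8394 GR peaks). The gene-end and gene-start Lpl peaks are FALSE there, as are chr8:68876132-68876742 and chr8:68928176-68928463. Of the GR peaks of Lpl, only chr8:68887470-68887602 and chr8:68895701-68895882 are TRUE. All peaks were used. Columns headed C were matched to vehicle by elimination, and an input library was not analysed here.

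The whole table of each assay was analysed with edgeR 4.0.16 (R 4.3.3). The function filterByExpr, by group, removed peaks with low counts, leaving 59881 H3K27ac and 5183 GR peaks, among them all 18 of the Lpl locus. TMM factors were computed from reads in peaks, so changes are relative to the other peaks. One quasi-likelihood fit per assay held all libraries, for GR with a batch term, and calls had a Benjamini-Hochberg adjusted p under 0.05. Standard errors are log2 fold changes, without sign, over the square root of F, and 95% intervals use the t distribution with the fit's degrees of freedom. DESeq2 1.42.0 was run beside it. The procedure was also run on simulated counts with no batch effect and no replicate pairing, so that run does not cover these features of the data. CPM are TMM-scaled counts per 1000000 reads in peaks, per kb where divided by the deposited length.

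Gene spans came from a RefSeq table for mm10, and a peak of a pathway gene is one with that gene nearest, within 50 kb. Ties went to the first gene in alphabetical order. The text names every Lpl peak, the pathway genes whose peak with the most reads had a call without the block, and 5 peaks highly correlated with the gene-end peak (log2 CPM, prior count 2). These 5 are the most correlated outside the window among peaks within 50 kb of a protein-coding gene, at most 1 per gene. Gpihbp1 was added after its values were seen, as were Cd36, Lipa and Sort1. The members, lists and tests were chosen with earlier results of these data known. H3K27ac residuals correlated at 0.268 to 0.678 in 18 pairs of libraries with the same replicate number and at -0.449 to 0.0406 in 36 others, and the numbers were taken as pairs. Residuals from a group mean sum to 0, so these ranges are not independent of each other. The fit without this block had been set as the main one.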

Additional observations from a re-analysis of the deposited data

How the results depend on the processing

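The H3K27ac values of the gene-end peak changed little. Leaving out each library of the 2 groups compared gave -1.12 to -0.70 for Cort, -1.44 to -1.01 for Dex and 0.92 to 1.33 for IL4 (log2 relative to vehicle). The replicate block gave -0.91, -1.22 and 1.11. Scaling by low-count peaks (the lowest 25%) gave -1.88 for Cort and -2.23 for Dex against IL4. Of the other Lpl peaks, 5 values against IL4 moved by more than the spread, 1 of them without Dex replicate 2. The sign of the gene-end peak did not change under any alternative run, but 3 values near 0 or with few reads did. Cort at chr8:68928176-68928463 had 0.25 without vehicle replicate 2, IL4 at chr8:68876132-68876742 ran down to -0.13 and IL4 at chr8:68890331-68893642 up to 0.09. Using only peaks with TRUE in the filtered column gave no value for the gene-end and gene-start peaks, nor for chr8:68876132-68876742 and chr8:68928176-68928463.

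GR calls also depended on the processing. For Cort the 2 calls became 4 with median-of-ratios scaling, 0 with total-count scaling, 1 without the 1% largest peaks, 0 without the count filter, 4 with DESeq2, 0 without the batch term and 1 in batch 1 alone, which was chosen after seeing the data. Leaving out each Cort or vehicle library gave 0 to 3. For Dex the 2 calls became 0 with total-count scaling, 0 without the count filter, 4 with DESeq2 and 0 without the batch term, and 1 to 3 with a library left out. The causes were not tested. GR replicate numbers correlated at -0.197 to 0.187 and share only a number. With the block, Cort kept 2 calls and Dex had 3. For IL4, whose numbers lie in batch 2 alone, no paired analysis was possible because in that batch IL4 and vehicle share only number 3.

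With total-count scaling the GR log2 fold change changed sign at chr8:68892645-68892776 (0.31 with Cort, 0.27 with Dex, 0.35 with IL4), chr8:68899442-68899530 (0.18 with Cort, 0.38 with Dex), chr8:68905730-68905903 (0.03 with Dex) and chr8:68895701-68895882 (0.15 with IL4). With IL4 it also did without the batch term at chr8:68880708-68880862 (-1.35) and chr8:68899442-68899530 (-1.82), and without the count filter at chr8:68892645-68892776 (0.03). Leaving out a library gave IL4 values of -0.08 to 1.19, -0.33 to 0.16 and -0.94 to 0.72 at the GR peaks starting at 68880708, 68892645 and 68895701. Dex against Cort ran from -0.48 to 0.33, -0.25 to 0.22, -0.24 to 0.55, -0.22 to 0.57 and -0.04 to 0.45 at those starting at 68892645, 68895701, 68899442, 68901235 and 68905730, and at 68901235 it was -0.05 without the batch term and -0.18 in batch 1 alone. None of these passed the test.

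Of the pathway peaks, Cort's 3 calls became 1 with scaling by low-count peaks, 6 with DESeq2, 35 with the replicate block and 1 to 5 with a library left out (1 without vehicle replicate 2, Cort replicate 1 or Cort replicate 3, 5 without Cort replicate 2). Dex's 7 became 3 with scaling by low-count peaks, 13 with DESeq2, 51 with the block, 3 in a fit of Dex and vehicle alone and 3 to 13 with a library left out (3 without vehicle replicate 3 or Dex replicate 1, 4 without Dex replicate 3, 13 without Dex replicate 2). IL4's 43 became 86 with the block and 26 to 39 with a library left out, 26 without vehicle replicate 2 and 28 without IL4 replicate 3.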
